A study of Homo sapiens with 18 samples.

Results

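Aldehyde dehydrogenases remove reactive aldehydes by oxidising them to carboxylic acids. This report follows 10 genes of the family in A549 cells given sodium propionate (SP): ALDH1A1, ALDH1A2, ALDH1A3, ALDH1B1, ALDH2, ALDH3A1, ALDH3A2, ALDH3B1, ALDH7A1 and ALDH9A1. The genes were chosen by symbol, and all 10 were found among the 61541 Ensembl genes of the count tables, each under a single identifier. A549 is an established line of a human lung adenocarcinoma, here wild type (unedited), and it is the sole line studied, so nothing here speaks for other lung cancer cells. RNA was sequenced from 18 libraries in 6 groups of 3. In the short experiment, untreated cells taken at 24 h (Control_24H) were set beside cells given 5 mM SP for 3 h (SP_3H) or 24 h (SP_24H). In the long experiment, untreated cells taken at day 3 (Control_3D) were set beside cells given 5 mM SP for 3 days (SP_3D) or 12 days (SP_12D). SP is the salt of a short-chain fatty acid. The SP_3H cells have no control of their own time and neither have the SP_12D cells, so in those comparisons exposure and time in culture cannot be told apart.

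Members of the family differ in place and substrate. ALDH1A1, ALDH1A2 and ALDH1A3 are cytosolic and make retinoic acid from retinal, ALDH3A1 and ALDH3B1 act on medium- and long-chain aldehydes from lipid peroxidation, and ALDH1B1 and ALDH2 are mitochondrial and oxidise acetaldehyde. In lung cancer, high ALDH activity is a common marker used to isolate stem-like tumour cells, and A549 is known as a line with high ALDH1A1 and ALDH3A1. A549 cells also carry a mutated KEAP1, which leaves the oxidative stress factor NRF2 constitutively active.

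The libraries held 14187401 to 43765330 counted reads, and CPM (counts-per-million) values below were taken over library sizes scaled by the TMM method, whose factors lay between 0.957 and 1.04. The 5 epithelial markers (KRT8, KRT18, KRT19, EPCAM, CDH1) had reads in every group. They summed to 6850 to 8370 CPM in Control_24H and 12300 to 13900 CPM in SP_24H, and to 6000 to 7730 CPM in Control_3D, 11700 to 12500 CPM in SP_3D and 11000 to 15400 CPM in SP_12D. The 6 fibroblast markers summed to 6.78 to 22.4 CPM in Control_24H and 62.7 to 90.7 CPM in SP_24H, and to 15.4 to 16.4 CPM in Control_3D, 63.6 to 74.1 CPM in SP_3D and 36.1 to 65.2 CPM in SP_12D. Most of that sum was COL1A1, while COL1A2 or DCN was at 0 in each group. LUM had 0.903 CPM in Control_3D, 3.76 in SP_3D and 7.49 in SP_12D, and DCN had 0, 9 and 9 reads over those groups. Leukocyte markers (0.732 to 1.67 CPM in sum, CD3E at 0 throughout) and endothelial markers (0.245 to 2.88 CPM) stayed near the floor. The part of these markers in the results below was not tested, and in bulk RNA fewer cells of a kind and less RNA per cell cannot be told apart. The third SP_12D library stood apart. Without it the comparison of SP_12D with SP_3D gave 2456 genes higher and 2617 lower, against 792 and 648 with it. The labels do not say whether libraries of a group came from separate cultures, so p-values measure the spread between these libraries, which may be technical.

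RefSeq start sites (GRCh38.p14) were at hand for 8 of the 10 members, with 11 windows of 250 bases before a start. ALDH2 and ALDH3A1 had no entry. The windows of 3 members are printed because their RNA went opposite ways in SP: ALDH1A1 fell (chr9:72953054-72953303, minus strand), whereas ALDH1A3 (chr15:100879581-100879830, plus strand) and ALDH1B1 (chr9:38392452-38392701, plus strand) rose. Each is written 5′ to 3′ and ends at the last base before the start. Capitals mark CCAAT and GGGCGG on either strand.
ALDH1A1: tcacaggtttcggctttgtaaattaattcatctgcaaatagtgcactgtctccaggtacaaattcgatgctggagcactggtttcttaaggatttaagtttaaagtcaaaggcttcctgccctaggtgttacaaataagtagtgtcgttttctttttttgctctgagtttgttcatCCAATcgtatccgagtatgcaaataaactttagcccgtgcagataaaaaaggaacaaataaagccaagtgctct
ALDH1A3: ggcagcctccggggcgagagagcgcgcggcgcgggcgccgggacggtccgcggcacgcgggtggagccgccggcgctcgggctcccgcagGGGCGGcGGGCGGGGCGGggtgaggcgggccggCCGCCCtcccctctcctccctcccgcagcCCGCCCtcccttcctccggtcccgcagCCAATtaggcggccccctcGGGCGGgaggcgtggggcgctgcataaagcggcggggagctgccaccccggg
ALDH1B1: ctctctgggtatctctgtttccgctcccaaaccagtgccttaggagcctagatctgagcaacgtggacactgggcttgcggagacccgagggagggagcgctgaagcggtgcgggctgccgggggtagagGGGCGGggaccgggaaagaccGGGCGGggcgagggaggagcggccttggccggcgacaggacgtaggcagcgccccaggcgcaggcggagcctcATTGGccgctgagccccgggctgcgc
Each of these 3 windows held 1 CCAAT, a motif found on either strand in 32% of 35116 promoter windows of this length. The ALDH1A1 window held no GGGCGG, the ALDH1B1 window 2 and the ALDH1A3 window 6 (overlapping matches counted), against 42.6% of all windows with at least 1. The ALDH1A1 window was poor in G and C (38.4%) with 6 CpG, whereas the ALDH1A3 window had 82.4% and 38 CpG and the ALDH1B1 window 70.4% and 23 CpG. The median over all windows was 11 CpG. Other members that fell also had windows rich in G and C. The ALDH9A1 window had 67.2%, 21 CpG and 2 GGGCGG. The ALDH3B1 windows had 66.8% and 63.6%, 11 and 3 CpG, and 2 and 0 GGGCGG. Whether base content goes with direction was not tested. None of the 11 member windows held TATAAA or TGACNNNGC, the core that NRF2 prefers (10.7% and 10.9% of all windows). GCGTG, the core of the aryl hydrocarbon receptor (AHR) site, was found in 1 window each of ALDH1A2, ALDH1A3 and ALDH3A2, against 32.2% of all windows. These are letter matches and show no binding.

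Per length, the family's RNA in untreated cells was almost all ALDH1A1 and ALDH3A1. ALDH1A1 had 3083 ± 151 RPKM (CPM per kilobase of exon, ± SD, n = 3) in Control_3D and 2469 ± 256 in Control_24H, which was 81.3% and 80.7% of the summed RPKM of the 10 members. ALDH3A1 had 498.5 ± 61.3 and 428 ± 60.6 RPKM, the former 13.1% of the sum. ALDH3B1 followed with 102 ± 9.10 RPKM in Control_3D and 52.1 ± 6.60 in Control_24H. The ranges of these 3 genes did not overlap each other or those of the members below them. In Control_3D the next were ALDH9A1 (31.4 ± 0.620 RPKM), ALDH1B1 (27.0 ± 1.88), ALDH3A2 (25.4 ± 0.432), ALDH2 (16.5 ± 0.618), ALDH7A1 (6.95 ± 0.489) and ALDH1A3 (1.80 ± 0.0842). ALDH1B1 and ALDH3A2 are neighbours whose libraries overlapped (25.2 to 28.9 and 24.9 to 25.7 RPKM), whereas the other neighbours did not overlap. In Control_24H the order of the middle members was ALDH1B1 (38.6 ± 3.55 RPKM), ALDH9A1 (28.9 ± 2.09), ALDH3A2 (22.7 ± 1.88), ALDH2 (8.64 ± 0.119), ALDH1A3 (6.51 ± 1.54) and ALDH7A1 (5.44 ± 0.0914). The last pair overlapped there (5.02 to 8.09 and 5.36 to 5.54 RPKM). ALDH1A2 was last in both controls (0.0462 ± 0.0312 and 0.00938 ± 0.00977 RPKM). The order of the middle members rests on the length used: with the longest transcript in place of all exons, ALDH3A2 moved from rank 6 to rank 4 in Control_3D and to rank 3 in Control_24H, whereas ALDH1A1 stayed first with 77.6% and 76.7%.

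**Figure D1:**
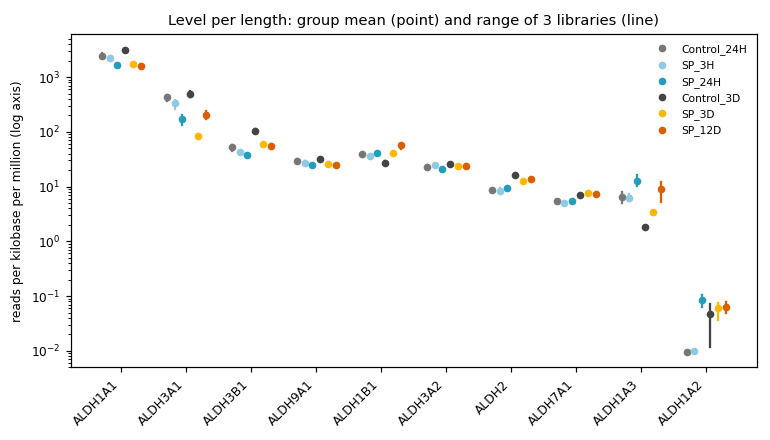
RPKM on a log axis for each member in the 6 groups, with points for group means and lines for the range of 3 libraries (no line where a library had 0 reads). ALDH1A1 and ALDH3A1 lie above the other members in every group, and ALDH1A2 lies lowest in every group.

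The share of all counted reads that the 10 members took was lower in SP from 24 h on, given here as a description. It was 0.968% ± 0.105 in Control_24H, 0.875% ± 0.0643 in SP_3H and 0.649% ± 0.0277 in SP_24H (mean ± SD of 3 libraries). In the long experiment it was 1.24% ± 0.0432 in Control_3D, 0.638% ± 0.0200 in SP_3D and 0.656% ± 0.0318 in SP_12D. The SP_24H, SP_3D and SP_12D libraries each lay below every control library of their experiment. Most of the difference was ALDH1A1, which alone took 0.886% of reads in Control_3D, 0.482% in SP_3D and 0.449% in SP_12D.

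Fewer members rose than fell against control, and none passed the test at 3 h. A gene is called changed at an adjusted p under 0.05 (edgeR quasi-likelihood test, Benjamini-Hochberg over all tested genes). At 3 h, 0 of 10 members were called, where 11.5% of the 17377 tested genes were. That share rests on 1285 genes higher and 714 lower, which became 621 and 320 without the second SP_3H library. Before adjustment, ALDH3B1 alone of the members was under 0.05, with an adjusted p of 0.164, and DESeq2 also called 0 members. At 24 h, 1 member rose (ALDH1A3) and 3 fell (ALDH1A1, ALDH3A1, ALDH3B1) of the 9 other than ALDH1A2, and 28.8% of all tested genes were called. ALDH1A2 was also called higher, but it passed the filter on low counts through SP_24H alone and had to differ, so it is left aside here. At 3 days, 2 rose (ALDH1A3, ALDH1B1) and 5 fell (ALDH1A1, ALDH2, ALDH3A1, ALDH3B1, ALDH9A1) of 9 tested, against 48.6% of 17775 tested genes. At 12 days ALDH1A3 and ALDH1B1 were called higher and ALDH1A1, ALDH2, ALDH3A1, ALDH3B1 and ALDH9A1 lower, against 49.8% of all tested genes. SP_3H and SP_24H share their controls, as do SP_3D and SP_12D, so the counts within an experiment are not independent. At 24 h, 16.8% of all genes were called higher and 12.0% lower, and at 3 h 7.39% and 4.11%. At 3 and 12 days the 5 members that fell stand against 23.3% and 23.4% of all genes called lower, and the 2 that rose against 25.2% and 26.4% called higher. The median log2 fold change of the 9 members other than ALDH1A2 was −0.11 at 3 h, −0.12 at 24 h, −0.30 at 3 days and −0.26 at 12 days, and the median over all tested genes was 0.0034, −0.0099, −0.024 and −0.0037.

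Without any test, the 3 libraries of the SP group lay fully above or fully below the 3 controls for 0 and 1 members at 3 h (15.6% and 11.7% of all tested genes, 27.3% in all). With ALDH1A2 left aside, the numbers above and below were 1 and 4 at 24 h (24.6% and 19.8% of all genes, 44.4% in all). They were 3 and 6 at 3 days (30.5% and 30.7%, 61.2% in all) and 2 and 5 at 12 days (28.7% and 27.3%, 55.9% in all). The members' counts at 3 h are below or near the share of all genes.

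A stricter rule (adjusted p under 0.0001 and a fold of at least 2, the study's thresholds) called fewer members. It called 0 members at 3 h and 0 at 24 h, where it called 0 and 0.685% of all tested genes (0.622% higher and 0.0633% lower at 24 h). The 0 at 24 h depends on the tool: DESeq2 put ALDH3A1 past the same thresholds (−1.33, adjusted p = 2.43e-08), as did edgeR without a filter on low counts (−1.30, adjusted p = 3.05e-08) and with GC and length offsets (−1.82, adjusted p = 8.82e-05). DESeq2 called 997 genes higher and 195 lower by these thresholds at 24 h, and 297 and 118 at 3 h, against 108 and 11, and 0 and 0, by edgeR. With the replicate block edgeR called 2 and 0 at 24 h. At 3 days it called ALDH3A1 as lower (8.44% of all tested genes called, 6.58% higher and 1.86% lower). At 12 days it called ALDH3A1 as lower and ALDH1B1 as higher (9.11%, with 6.88% higher and 2.23% lower). When each library's trends with the GC content and length of genes were removed, the split of all calls moved toward lower: the share of calls that were higher went from 64.3% to 48.2% at 3 h, from 58.3% to 36.5% at 24 h, from 52.0% to 39.1% at 3 days and from 53.0% to 41.5% at 12 days. The median of all genes moved by −0.12 at 24 h. Every call of a member against control kept its direction and its place past the threshold there.

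**Figure D2:**
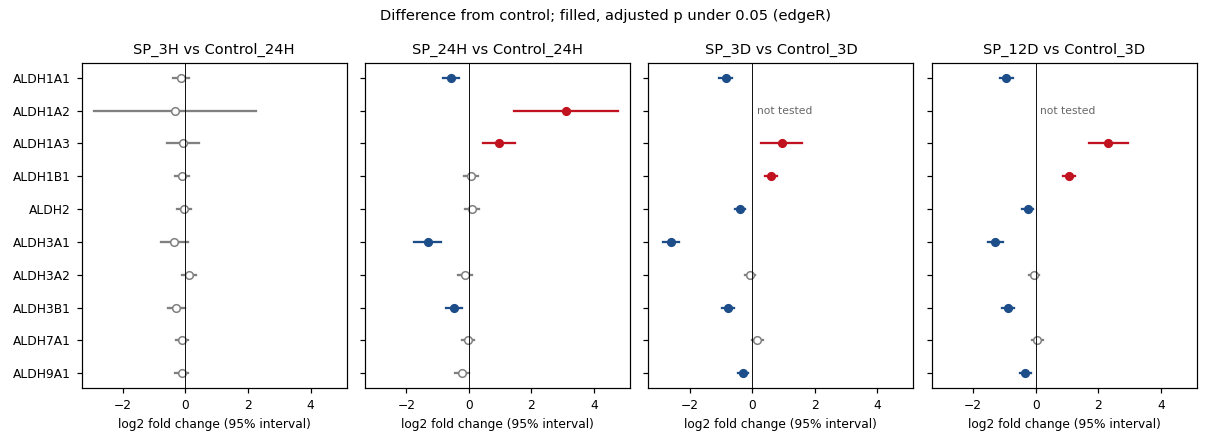
Log2 fold change of each member against its control in the 4 comparisons, with 95% intervals. Filled red points mark members called higher and filled blue points members called lower at an adjusted p under 0.05. The red point of ALDH1A2 at 24 h is no support for a rise. That gene passed the filter on low counts through SP_24H alone. ALDH3A1 at 3 days lies farthest from 0 among the long-experiment members (−2.58).

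ALDH1A1, the retinal-oxidising member with the most RNA here and a marker of stem-like tumour cells (ENSG00000165092, chromosome 9, 72900671 to 73080442, minus strand), fell from 24 h on. The Control_3D libraries had 9004, 9001 and 8262 CPM, the SP_3D libraries 4944, 4913 and 4681, and the SP_12D libraries 4750, 4826 and 4071. All 6 SP libraries lay below all 3 controls, with a wide gap. The log2 fold change was −0.85 (SE 0.0960, adjusted p = 2.63e-06) at 3 days and −0.94 (SE 0.0962, adjusted p = 8.48e-07) at 12 days. In the short experiment Control_24H had 7151, 7661 and 6228 CPM, SP_3H 5593, 6703 and 6872, and SP_24H 4735, 4830 and 4660. The SP_24H libraries were close to each other and below every control, whereas those of SP_3H overlapped the controls. The difference was −0.56 (SE 0.114, adjusted p = 0.00594) at 24 h and −0.13 (SE 0.113, adjusted p = 0.528) at 3 h. The levels of the 3 later SP groups were alike in CPM (4742 ± 85.3 at 24 h, 4846 ± 144 at 3 days, 4549 ± 416 at 12 days), although the 2 tables were made separately and were not tested against each other.

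ALDH1A3, which makes retinoic acid in many epithelial tissues (ENSG00000184254, chromosome 15, 100877714 to 100916626, plus strand), rose where ALDH1A1 fell. The 3 controls of day 3 had 9.09, 9.96 and 9.69 CPM, the SP_3D libraries 19.5, 19.1 and 16.5, and the SP_12D libraries 51.0, 65.1 and 28.2. Neither SP group overlapped the controls, and the SP_12D libraries were widely spread, with the third the lowest. The difference was 0.94 (SE 0.287, adjusted p = 0.0241) at 3 days and 2.33 (SE 0.279, adjusted p = 1.35e-04) at 12 days. Without the third SP_12D library the difference at 12 days was 2.59. The call at 3 days was lost when any Control_3D library or the first or the second SP_3D library was left out (adjusted p up to 0.0772). The Control_24H libraries had 43.2, 26.8 and 34.3 CPM, SP_3H 39.8, 28.9 and 29.99, and SP_24H 87.1, 53.7 and 63.1. SP_24H did not overlap its controls and SP_3H did. The difference was 0.97 at 24 h (SE 0.226, adjusted p = 0.0118) and −0.08 at 3 h (SE 0.226, adjusted p = 0.874). The controls of the short experiment had more ALDH1A3 CPM than those of the long one, which was not tested, as the 2 tables are separate experiments. Exons of the gene overlap the antisense gene ALDH1A3-AS1 over 1715 bases, and whether counting used the strand is not given in the sources used here, so reads of the pair cannot be told apart.

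ALDH1A2, a retinoic acid maker of the embryo, was near the floor. It had 5 reads over the Control_24H libraries, 4 over SP_3H and 66 over SP_24H, and 19, 24 and 30 reads over Control_3D, SP_3D and SP_12D. The ratio of SP_24H to control was 8.84 after scaling, with a 95% counting interval of 3.6 to 28.1. No library of Control_24H or SP_3H reached the filter level of 0.403 CPM and all 3 of SP_24H did, so no test of it is given. It was not tested in the long experiment, where the ratios to control were 1.37 (0.72 to 2.65) at 3 days and 1.45 (0.792 to 2.73) at 12 days. These intervals cover counting error only. Its exons (chromosome 15, 57953424 to 58497866, minus strand) overlap AQP9 over 354 bases and ALDH1A2-AS1 over 209 bases on the other strand.

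**Figure D3:**
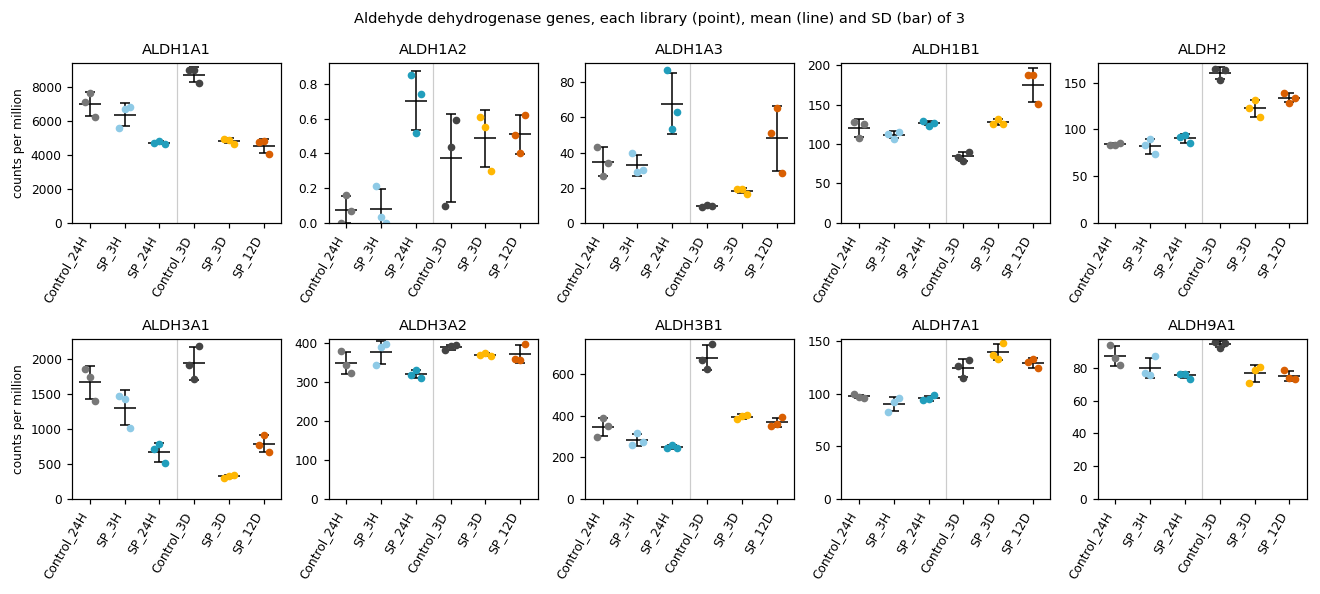
CPM of each member in every library (points), with the mean (line) and SD (bar) of 3 libraries per group and a linear axis from 0. ALDH1A1, ALDH3A1 and ALDH3B1 drop in the SP_24H, SP_3D and SP_12D groups, ALDH1A3 and ALDH1B1 climb in the long experiment, and ALDH7A1 and ALDH3A2 stay near their controls.

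ALDH3A1, which oxidises aromatic and medium-chain aldehydes and is abundant in the cornea (ENSG00000108602, chromosome 17, 19737984 to 19748943, minus strand), fell most of all tested members in each comparison from 24 h on. Control_3D had 1908, 1709 and 2183 CPM, SP_3D 302.6, 328.5 and 336, and SP_12D 774, 918 and 676. The 3 groups were fully apart, with SP_3D the lowest and SP_12D between it and control. The difference was −2.58 (SE 0.121, a 6.0-fold fall, adjusted p = 2.39e-10) at 3 days and −1.29 (SE 0.116, 2.45-fold, adjusted p = 2.07e-07) at 12 days. The short experiment began from 1847, 1739 and 1397 CPM in Control_24H, with 1461, 1423 and 1015 in SP_3H and 709, 778 and 516 in SP_24H. Libraries of SP_24H were all below the controls, and those of SP_3H were lower on average with overlap. The difference was −1.31 (SE 0.194, adjusted p = 0.00122) at 24 h and −0.35 (SE 0.191, adjusted p = 0.293) at 3 h. A non-coding gene shares 98 exon bases with it.

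ALDH3B1, a membrane-bound enzyme for aldehydes from lipid peroxidation (ENSG00000006534, chromosome 11, 68008578 to 68029282, plus strand), fell beside ALDH1A1 and ALDH3A1. Control_3D had 668, 622.5 and 742 CPM, SP_3D 385, 398 and 405, and SP_12D 350.0, 361 and 392. No SP library of the long experiment reached the lowest control. The difference was −0.78 (SE 0.0853, adjusted p = 2.09e-06) at 3 days and −0.88 (SE 0.0855, adjusted p = 4.91e-07) at 12 days. Control_24H had 299, 386 and 348 CPM, SP_3H 258.5, 314 and 274, and SP_24H 242.5, 259.5 and 244.5. SP_24H lay below its controls and SP_3H overlapped them. The difference was −0.47 at 24 h (SE 0.118, adjusted p = 0.0163) and −0.29 at 3 h (SE 0.118, adjusted p = 0.164). The call at 24 h was lost without the second Control_24H library or without the first or the third SP_24H library (adjusted p up to 0.0630). With the GC and length trends removed the differences were larger, −1.09 at 24 h and −1.19 at 3 days.

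ALDH3A2, the fatty aldehyde dehydrogenase of the endoplasmic reticulum (ENSG00000072210, chromosome 17, 19648136 to 19685760, plus strand), passed no test against control in the main fit. Its libraries held 323 to 379.5 CPM in Control_24H and 311 to 332 in SP_24H, and 382 to 394 in Control_3D, 366 to 374 in SP_3D and 357 to 398 in SP_12D. The 95% intervals of the difference were −0.23 to 0.09 at 3 days and −0.23 to 0.09 at 12 days. The SP_3D libraries all lay below the controls. With the GC and length trends removed, ALDH3A2 was called lower at 12 days (adjusted p = 0.044).

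ALDH1B1, a mitochondrial enzyme for acetaldehyde and lipid aldehydes (ENSG00000137124, chromosome 9, 38392702 to 38398661, plus strand), rose in the long experiment. Control_3D had 84.0, 78.5 and 90.2 CPM, SP_3D 126, 132 and 125, and SP_12D 188, 187 and 151. The 3 groups were apart, SP_12D the highest. The difference was 0.60 (SE 0.0931, adjusted p = 6.83e-05) at 3 days and 1.06 (SE 0.0932, adjusted p = 1.72e-07) at 12 days. In the short experiment Control_24H had 128, 108 and 125 CPM, SP_3H 113, 107 and 116, and SP_24H 129, 123 and 127. Those groups overlapped, and the differences were −0.11 (adjusted p = 0.561) at 3 h and 0.07 (adjusted p = 0.594) at 24 h. With the GC and length trends removed the latter was −0.16.

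ALDH2, the main mitochondrial enzyme for acetaldehyde (ENSG00000111275, chromosome 12, 111766887 to 111817532, plus strand), fell a little in the long experiment. Control_3D had 164, 153 and 163 CPM, SP_3D 123, 131 and 113, and SP_12D 139, 129 and 134. Both SP groups lay below the lowest control, and they overlapped each other. The difference was −0.39 (SE 0.0785, adjusted p = 7.27e-04) at 3 days and −0.26 (SE 0.0782, adjusted p = 0.0119) at 12 days. Without the first Control_3D library the latter had an adjusted p of 0.0511. With the GC and length trends removed it was −0.41. At 3 h and 24 h the differences were −0.03 (adjusted p = 0.885) and 0.11 (adjusted p = 0.439), and the latter was −0.15 with those trends removed. A further gene shares 680 exon bases with ALDH2 on the same strand.

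ALDH9A1, which takes part in carnitine synthesis (ENSG00000143149, chromosome 1, 165662216 to 165698562, minus strand), also fell a little. Control_3D had 95.4, 92.1 and 95.3 CPM, SP_3D 70.8, 78.9 and 80.3, and SP_12D 78.3, 73.8 and 72.9. No SP library reached the controls. The difference was −0.30 (SE 0.0775, adjusted p = 0.00483) at 3 days and −0.33 (SE 0.0773, adjusted p = 0.00219) at 12 days, and −0.21 (SE 0.0982, adjusted p = 0.139) at 24 h. ALDH7A1, an enzyme of lysine breakdown (ENSG00000164904, chromosome 5, 126531200 to 126595362, minus strand), passed no test in the main fit: its differences were −0.11 at 3 h, −0.03 at 24 h, 0.16 at 3 days (adjusted p = 0.102) and 0.05 at 12 days. At 3 days its SP libraries (133 to 148 CPM) all lay above its controls (115 to 132 CPM). Without the third SP_12D library, which enters the shared spread, the adjusted p was 0.0432. With only the 2 groups and the replicate block it was 0.0128. The annotation holds 4 pseudogenes of ALDH7A1, so its reads may be split.

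The exposures of each experiment were also compared with each other. From 3 h to 24 h of SP, ALDH1A3 rose and ALDH1A1 and ALDH3A1 fell, ALDH1A2 again left aside, where 20.1% of all tested genes were called (11.7% higher and 8.40% lower). The difference of SP_24H from SP_3H was −0.96 for ALDH3A1 (SE 0.192, adjusted p = 0.00885), −0.43 for ALDH1A1 (SE 0.114, adjusted p = 0.0270) and 1.05 for ALDH1A3 (SE 0.227, adjusted p = 0.0122). ALDH1A3 had an adjusted p of 0.0501 without the third SP_3H library. ALDH1A1 reached up to 0.0961 when the second or the third SP_3H library or any SP_24H library was left out, and 0.108 (difference −0.30) with the GC and length trends removed. From 3 to 12 days, 3 members rose and none fell, where 8.10% of all tested genes were called (4.46% higher and 3.65% lower). ALDH3A1 was 1.29 higher at 12 days than at 3 days (SE 0.116, adjusted p = 1.13e-05), from a mean of 322 to 789 CPM, and without the third SP_12D library it was 1.38 higher. ALDH1A3 was 1.39 higher (SE 0.264, adjusted p = 0.0154) and ALDH1B1 0.46 higher (SE 0.0919, adjusted p = 0.00642). ALDH1A3 lost its call without any SP_3D library or without the first SP_12D library (adjusted p up to 0.0770), and ALDH1B1 without the first SP_12D library (adjusted p = 0.0535). ALDH1A1 did not pass (−0.09, 95% interval −0.29 to 0.11), and neither did ALDH3B1 (−0.11, interval −0.29 to 0.07). Under the stricter rule 0 members were called from 3 h to 24 h (0.0288% of all genes), and ALDH3A1 alone was called from 3 to 12 days (0.180% of all genes, 0.152% higher and 0.0281% lower). With ALDH1A2 left aside, the libraries of SP_24H lay fully above those of SP_3H for 2 members and fully below for 3 (23.3% and 21.6% of all genes, 44.9% in all). Those of SP_12D lay above SP_3D for 3 and below for 1 (13.9% and 12.9%, 26.8% in all). ALDH3A1 is thus the member called lower than control at both times of the long experiment and called higher at the later time than at the earlier.

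The family has 9 further human genes that are no members here. Of the 8 tested in the long experiment, 5 rose and 3 fell at 3 days (25.2% and 23.3% of all genes), and 4 rose and 3 fell at 12 days (26.4% and 23.4%). At 24 h, 3 rose and 2 fell of 6 tested (16.8% and 12.0% of all genes), and at 3 h, 0 rose and 1 fell (7.39% and 4.11%). Without genes whose lower group had a library under the filter level (0.587 CPM in the long experiment, 0.403 CPM in the short one), 3 rose at 3 days and 3 at 12 days. ALDH6A1, the mitochondrial enzyme that yields propionyl-CoA from valine breakdown, rose by 0.85 at 24 h (SE 0.198, adjusted p = 0.0114) and 0.87 at 3 days (SE 0.123, adjusted p = 3.06e-05). Its call at 24 h was lost without the second SP_24H library (adjusted p = 0.0529). At 12 days it was 0.55 above control (adjusted p = 0.00155), or 0.34 without the third SP_12D library. ALDH16A1 fell by 0.35 at 3 h, by 0.66 at 24 h, by 0.63 at 3 days and by 0.73 at 12 days on the log2 scale (adjusted p = 0.0320, 7.17e-04, 1.23e-05 and 2.53e-06). The call at 3 h was lost in 8 of 9 fits without a single library (adjusted p up to 0.117), without a filter on low counts (0.197) and with only the 2 groups, without and with the block (0.118 and 0.320). With the GC and length trends removed the differences were −0.63 at 3 h, −1.36 at 24 h and −1.11 at 3 days. ALDH1L2, a mitochondrial enzyme of folate metabolism, rose by 0.83 at 24 h (adjusted p = 0.0161) and fell by 0.68 at 3 days and by 0.95 at 12 days (adjusted p = 2.55e-04 and 1.09e-05). The rise was lost without the first Control_24H or the second SP_24H library (adjusted p up to 0.0722). ALDH8A1, an enzyme of tryptophan breakdown, had 0.244 CPM in Control_3D and 0.849 and 0.873 CPM in SP_3D and SP_12D. ALDH1L1, the cytosolic partner of ALDH1L2, had 0.426 CPM in Control_3D and 1.09 CPM in SP_3D. No control library of either gene reached the filter level, so both were tested only through groups where they were high, and their calls are no support.

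Genes that feed or read the same pathways were counted from lists. The retinoid list holds 21 genes of retinol and retinal dehydrogenases, binding proteins, receptors and retinoic acid breakdown. Of 19 tested, 2 rose and 4 fell at 3 h (7.39% and 4.11% of all genes), 8 rose and 3 fell at 24 h (16.8% and 12.0%), 10 rose and 4 fell at 3 days (25.2% and 23.3%), and 9 rose and 4 fell at 12 days (26.4% and 23.4%). Without genes whose lower group had a library under the filter level, the numbers that rose were 2, 7, 6 and 4. Its median difference was −0.08, 0.56, 0.28 and 0.21 in that order. CRABP2, which carries retinoic acid to its receptors, rose at every time, by 0.97 at 3 h (adjusted p = 0.00374), 3.73 at 24 h (adjusted p = 3.07e-06), 3.66 at 3 days (adjusted p = 3.14e-11) and 3.58 at 12 days (adjusted p = 3.52e-11). It had 2.81, 2.69 and 2.45 CPM in Control_24H and 36.6, 30.1 and 38.5 in SP_24H, with no overlap. RARA, a retinoic acid receptor, rose by 1.28 at 3 h (adjusted p = 0.0282) and its relative RARB fell by 0.80 (adjusted p = 0.00697). DHRS4, a retinal reductase, fell by 1.05 at 24 h (adjusted p = 0.00197). DHRS9, a retinol-oxidising enzyme, had 0.485 CPM in Control_3D, 2.12 in SP_3D and 4.51 in SP_12D, and CRABP1 had 0.0880 CPM in Control_24H and 0.808 in SP_24H. Their control libraries were wholly or mostly under the filter level, so these 2 genes were tested through the groups where they were high and their calls are no support.

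Of 20 NRF2 target genes, which serve glutathione, NADPH and iron handling, none rose against control in any of the 4 comparisons. The numbers that fell were 2 at 3 h, 8 at 24 h, 15 at 3 days and 15 at 12 days, beside 4.11%, 12.0%, 23.3% and 23.4% of all genes called lower. The median difference of the list was −0.15, −0.32, −0.67 and −0.59. OSGIN1, an oxidative stress growth inhibitor, fell at 3 h (−0.60, adjusted p = 0.00657), 24 h (−1.18, adjusted p = 1.10e-04) and 3 days (−1.77, adjusted p = 7.79e-09). GCLC and GCLM, which make glutathione, fell by 0.92 and 0.80 at 24 h (adjusted p = 4.69e-04 and 0.00320). AKR1C1, AKR1C2 and AKR1C3, reductases of steroids and aldehydes, fell by 2.1, 2.1 and 1.66 at 12 days (adjusted p = 6.97e-10, 4.40e-11 and 2.70e-10). They are near-identical in sequence, so their reads may be split among them. SLC7A11, the cystine carrier, fell by 1.69 at 3 days (adjusted p = 1.47e-05), and ABCC2, an exporter of conjugates, fell by 0.55 at 3 h (adjusted p = 0.0100). NQO1 is the list's classic NRF2 target, named here after its values were seen, and it did not pass at any time (−0.17 at 3 days, adjusted p = 0.0949, and −0.21 at 12 days, adjusted p = 0.0502).

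Of 8 AHR target and partner genes tested, 2 rose at 3 h (7.39% of all genes), 4 at 24 h (16.8%), 6 at 3 days (25.2%) and 6 at 12 days (26.4%), and 1 fell, at 3 days (23.3%). The gene that fell was NFE2L2, the gene of NRF2 itself, which is in this list and not in the NRF2 target list. It had 71.2 CPM in Control_3D and 60.2 in SP_3D, and is named here after its values were seen. Without genes whose lower group had a library under the filter level, 1, 2, 3 and 3 rose. The median difference of the list was 0.35, 0.38, 0.74 and 0.83. TIPARP, which modifies AHR, rose by 0.96 at 3 h (adjusted p = 0.0244), and AHRR, the AHR repressor, rose by 1.63 at 24 h (adjusted p = 0.00111). AHRR overlaps other genes, so its reads cannot be assigned with certainty. CYP1A1, the classic AHR target, was low: 0.405 CPM in Control_24H, 1.09 in SP_3H and 3.55 in SP_24H, and 0.194 in Control_3D, 1.37 in SP_3D and 1.56 in SP_12D. UGT1A6, which shares exons with the other genes of its locus, had 0.411 CPM in Control_24H and 1.59 in SP_24H. Both had control libraries under the filter level and were tested through the groups where they were high.

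Of 16 alcohol dehydrogenases and carbonyl reductases, which make or use aldehydes, 11 were tested in the long experiment: 2 rose and 5 fell at 3 days (25.2% and 23.3% of all genes), and 1 rose and 4 fell at 12 days (26.4% and 23.4%). Of 10 tested in the short one, 0 changed at 3 h (11.5%), and 1 rose and 3 fell at 24 h (16.8% and 12.0%). Without genes whose lower group had a library under the filter level, 1 rose and 3 fell at 3 days, 1 rose and 2 fell at 12 days, and 1 rose and 1 fell at 24 h. ADH1C, an alcohol dehydrogenase, had 6.88 CPM in Control_3D, 0.627 in SP_3D and 0.442 in SP_12D. ADH6, of the same family, had 5.98, 0.446 and 0.174 CPM. Their SP libraries were partly or wholly under the filter level, so they were tested through the controls, where they were high. AKR1B10, a retinal and aldehyde reductase, fell by 1.00 at 24 h (adjusted p = 0.00104) and by 1.06 at 12 days (adjusted p = 9.76e-08).

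**Figure D4:**
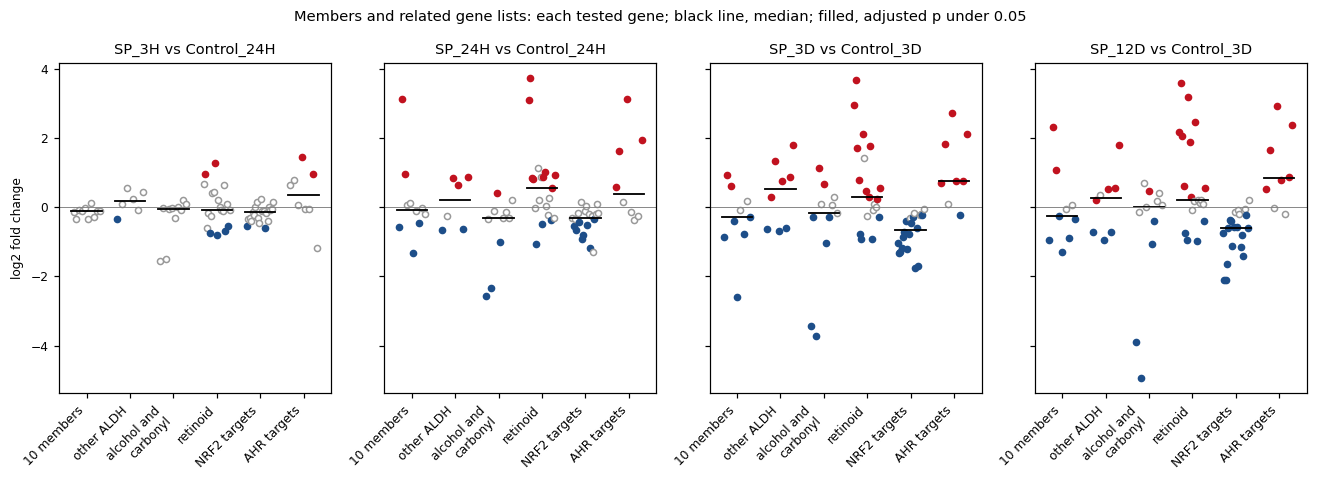
Log2 fold change against control of every tested gene (points) of the 10 members, the other ALDH genes and 4 related lists, with black lines for medians and filled points for an adjusted p under 0.05 (red higher, blue lower). No NRF2 target is marked higher in any panel, and the members include both directions from 24 h on. Filled points include genes tested only through the groups where they were high, such as ALDH1A2 at 24 h, and those are no support.

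The patterns of the members with most RNA were set beside those of 9405 genes with at least 10 CPM in the controls of both tables, over the 12 SP libraries. Likeness was the root-mean-square (RMS) difference of log2 CPM minus the control mean, and it is a description. OGG1, a DNA repair glycosylase, and ATE1, an arginyl transferase, were closest to ALDH1A1 (RMS difference 0.131 each), then MTHFD1L, a mitochondrial folate enzyme (0.134), ATP5MC2, a subunit of ATP synthase, and SIRT1, a deacetylase (0.142 each). The median over all genes was 0.693. ALDH3A1 had looser neighbours: OSGIN1 (0.466), the transcription factor ATF5 (0.522), MTHFD2 (0.523), the serine synthesis enzyme PSAT1 (0.542) and FAIM (0.545), with a median of 1.56 over all genes. Since the genes were chosen for this likeness, their shared course is no finding. For OSGIN1 the means were −1.76 at 3 days and −1.16 at 12 days, and for PSAT1 −1.93 and −1.33.

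**Figure D5:**
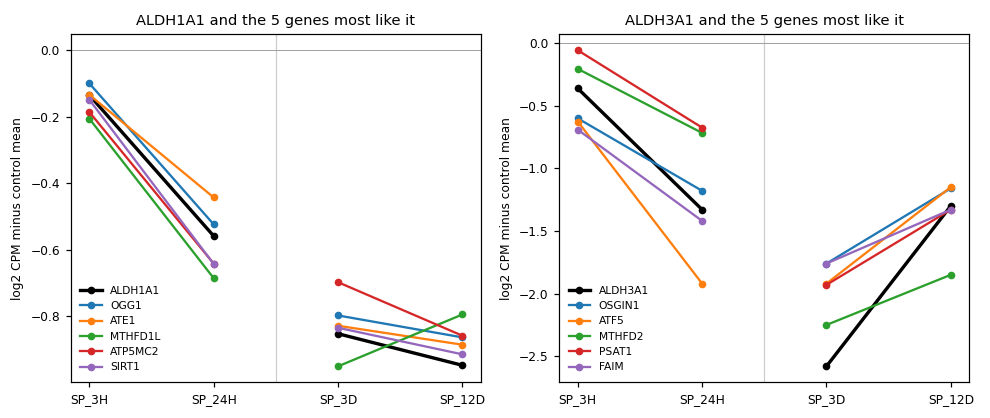
Mean log2 CPM minus the control mean of the same experiment in each SP group, for ALDH1A1 and ALDH3A1 (black) and the 5 genes most like each. The lines of ALDH1A1 and its neighbours lie between −0.44 and −0.69 at 24 h, and those of ALDH3A1 and its neighbours climb from 3 to 12 days.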

How the data were processed

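RNA was extracted from A549 cells (untreated or given 5 mM sodium propionate) and sequenced as paired ends on a NovaSeq 6000. The authors aligned reads with STAR 2.7.9a to GRCh38 with the Ensembl release 105 annotation, counted them per gene with featureCounts of Rsubread, and deposited raw counts, which were used here as deposited. Strand and multi-mapping settings are not given in the sources used here. Groups came from the sample labels, and each of the 2 count tables (9 libraries, 14187401 to 43765330 counts) was fitted on its own.

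Ensembl identifiers were given symbols from GENCODE (61369 of 61541 matched). edgeR 4.0.16 in R 4.3.3 was run with TMM scaling, filterByExpr (minimum count 10), a robust quasi-likelihood fit over all 9 libraries of a table and Benjamini-Hochberg adjustment over all genes tested. The threshold for a call was an adjusted p of 0.05. CPM used TMM-scaled library sizes, and RPKM used the summed length of all exons. The script was tested on simulated data. The members and lists were chosen with earlier results of these data known. Named genes were all members, up to 3 called genes of each list per comparison by size of change, and the 5 genes most like ALDH1A1 and ALDH3A1. A gene that this rule would name is not reported here.

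Alternatives were DESeq2 1.42.0, other size factors, no filter, 2 groups only, GC and length offsets, a replicate block, the stricter thresholds, and each library left out. Same-numbered libraries of SP_24H and Control_24H deviated together (correlations 0.499, 0.170 and 0.504, all over 0.1), a link found in the data and not given by the labels. Differently numbered libraries of these groups reached 0.175, so the link is weak evidence of pairs. All tests in this report are unpaired except where the replicate block is named. In other comparisons at least 1 pair did not pass.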

Additional observations from a re-analysis of the deposited data

Results flagged for a closer look

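The results below differed between exposure times. By the test of SP_24H against SP_3H, the log2 difference was −0.43 for ALDH1A1, 1.05 for ALDH1A3, −0.96 for ALDH3A1, −0.32 for ALDH16A1 and −0.33 for ALDH18A1. The call of ALDH16A1 (adjusted p = 0.0331) was lost when any SP_3H or SP_24H library was left out (adjusted p up to 0.112). It was also lost without a filter on low counts and with only the 2 groups and the block (up to 0.252). Alternatives for ALDH18A1 are not given here, and those for ALDH1A1 and ALDH1A3 are given above. ALDH1A2 had a fitted value of 3.44, but it passed the filter on low counts through SP_24H alone, so this is no support for a difference. By the test of SP_12D against SP_3D it was 1.39 for ALDH1A3, 0.46 for ALDH1B1 and 1.29 for ALDH3A1.

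For other genes, all 3 libraries of an SP group lay on one side of their control mean and all 3 of an SP group of the other experiment on the opposite side. The difference between those groups was not tested, and where another exposure time of the same experiment did not follow, its value is given too. ALDH1B1 differed from control by −0.11 at 3 h but by 0.07 at 24 h, the same direction as 0.60 at 3 days and 1.06 at 12 days. ALDH2 differed by −0.03 at 3 h, 0.11 at 24 h, −0.39 at 3 days and −0.26 at 12 days. ALDH7A1 differed by −0.11 at 3 h, −0.03 at 24 h, 0.16 at 3 days and 0.05 at 12 days. ALDH1L2 differed by 0.55 at 3 h, 0.83 at 24 h, −0.68 at 3 days and −0.95 at 12 days. ALDH18A1 differed by 0.08 at 3 h, −0.25 at 24 h, 0.28 at 3 days and 0.20 at 12 days.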

How the results depend on the processing

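Of 967 member values under alternatives, 910 kept direction and side of the threshold, 25 turned direction, 23 lost and 9 gained a call. At 3 h the count of 0 members became 1 with the replicate block (ALDH3A1), 1 with GC and length offsets (ALDH3B1) and 2 with both. Of all 17377 tested genes, the block called 1208 higher and 709 lower there. The offsets called 1486 and 1598, and both together 1648 and 1912. The block left the 24 h count at 5, which includes ALDH1A2, where it called 2881 of all genes higher and 2163 lower. Over all genes at 3 h, 1285 higher and 714 lower became 624 and 349 with only the 2 groups in the fit, and 0 and 0 with those and the block (2483 at an unadjusted p under 0.05 in edgeR). The stricter thresholds gave 0 members at 24 h, 1 at 3 days, 2 at 12 days, 0 for SP_24H against SP_3H and 1 for SP_12D against SP_3D. Leaving out single libraries gave 0 to 0 members at 3 h, 4 to 5 at 24 h, 6 to 8 at 3 days, 6 to 7 at 12 days, 1 to 4 for SP_24H against SP_3H and 1 to 3 for SP_12D against SP_3D. Those fits called 621 to 1509 of all genes higher and 320 to 700 lower at 3 h, and 1872 to 3525 and 924 to 3093 at 24 h. They called 3906 to 5171 and 3358 to 5242 at 3 days, and 4096 to 4934 and 3509 to 4990 at 12 days. For SP_24H against SP_3H they called 1161 to 2404 and 562 to 2002, and for SP_12D against SP_3D 302 to 2456 and 254 to 2617. The member counts at 24 h and for SP_24H against SP_3H include ALDH1A2 where it was called. Without it the main fit called 1 member higher and 3 lower at 24 h, and 1 higher and 2 lower for SP_24H against SP_3H. Differences that turned direction were all uncalled. With GC and length offsets, without and with the block, they were −0.157 and −0.152 for ALDH1B1 and −0.150 and −0.148 for ALDH2 at 24 h, −0.0511 and −0.0484 for ALDH7A1 at 12 days, and, for SP_12D against SP_3D, −0.0111 and −0.0122 for ALDH3A2, 0.0362 and 0.0361 for ALDH3B1 and 0.0417 and 0.0413 for ALDH16A1. ALDH3A2 in that comparison was −0.00676 with DESeq2 and −0.00689 with its size factors. Without single libraries the ranges were −1.83 to 0.459 for ALDH1A2, −0.242 to 0.0781 for ALDH1A3 and −0.103 to 0.0356 for ALDH2 at 3 h, −0.0121 to 0.0963 for ALDH1B1 at 24 h, −0.0144 to 0.0948 for ALDH7A1 and −0.146 to 0.503 for ALDH1L1 at 12 days, and −0.0621 to 0.0210 for ALDH3A2 and −0.145 to 0.149 for ALDH8A1 between 12 and 3 days. The cause was not tested. Depth limits ALDH1A2, ALDH8A1 and ALDH1L1.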
